A study of Mus musculus with 27 samples.

Results

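The Notch genes followed here were 10 mouse genes, chosen by symbol among the 21850 rows of the deposited gene table: the receptors Notch1, Notch2 and Notch3, the ligands Jag1, Jag2 and Dll4, and the target genes Hes1, Hey1, Heyl and Nrarp. Each symbol matched 1 row. No measured value entered the choice. Their levels were compared between hepatocytes taken straight from the liver, hepatocyte organoids and 3-cell-type assembloids.

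Notch signalling passes between cells that touch. A Jagged or Delta ligand on 1 cell binds a Notch receptor on its neighbour, proteases cut the receptor, and the freed intracellular domain joins the DNA-binding protein RBPJ in the nucleus and switches on genes such as Hes1, Hey1, Heyl and Nrarp. In the liver the pathway is best known for the bile ducts: Jag1 of the portal mesenchyme and Notch2 of the adjoining epithelium are needed for duct formation, and loss of either causes Alagille syndrome in people. Dll4, Notch4 and Heyl are known from vessels, and Notch3 from mural and mesenchymal cells.

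Bulk RNA-seq was done on 27 libraries of 9 conditions, with 3 libraries in each, and the cells are labelled as primary C57BL/6 liver cells. Freshly isolated hepatocytes carried the label wild type, except that replicate 3 has a title of wild type and a genotype label of MDR2-het. HepOrgs, organoids of wild-type hepatocytes in Matrigel, were at passage 2 and were kept in HM-Wnt medium or moved to MM medium for 7 days (1 week) or 14 days (2 weeks). Periportal assembloids, grown in MM for 7 days or 18 days (2.5 weeks) and labelled wild type, joined 10 HepOrgs with 1000 cholangiocytes and either 250 portal mesenchymal cells (homeostatic) or 2500 (fibrotic-like). HM-Wnt holds growth factors (EGF, HGF, FGF7 and FGF10), R-spondin, gastrin, nicotinamide, the GSK3 inhibitor CHIR and the TGF-beta receptor inhibitor A83-01, which MM lacks. Both media hold Wnt conditioned medium and a ROCK inhibitor. The labels do not give an age or say whether libraries of a condition came from separate animals or cultures, so p-values measure the spread between these libraries, which may be technical.

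All 10 genes were located in GRCm39. Notch1 (ENSMUSG00000026923) is at chr2:26347915-26406675, Notch2 (ENSMUSG00000027878) at chr3:97920800-98057677 and Notch3 (ENSMUSG00000038146) at chr17:32339794-32385893. Jag1 (ENSMUSG00000027276) is at chr2:136923373-136958693, Jag2 (ENSMUSG00000002799) at chr12:112871421-112893437 and Dll4 (ENSMUSG00000027314) at chr2:119156170-119166443. Hes1 (ENSMUSG00000022528) is at chr16:29882134-29886643, Hey1 (ENSMUSG00000040289) at chr3:8726956-8732385, Heyl (ENSMUSG00000032744) at chr4:123127349-123143682 and Nrarp (ENSMUSG00000078202) at chr2:25070770-25073351. Notch2, Dll4, Hes1, Heyl and Nrarp lie on the plus strand and the others on the minus strand. Annotated antisense RNAs overlap Notch1, Notch2, Notch3, Jag1, Dll4, Hes1, Hey1 and Nrarp. Strand-specific counting is not stated, so reads of the partners cannot be told apart.

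RBPJ binds DNA with the core letters TGGGAA, which were searched on both strands (TTCCCA on the other) in the 250 bases before the canonical start of each gene. Hes1, the target on which the comparisons turn, held 2 matches on its own strand, at positions -49 and -35 counted from the start. The targets Heyl and Nrarp and the 6 ligands and receptors held none in this window. Of 21770 protein-coding promoters of this length, 22.7% held at least 1 match and 3.06% at least 2. The stretch that holds the Hes1 matches is chr16:29883977-29884126 in GRCm39, on the plus strand and within the annotated span of the Hes1 gene. It is given in the direction of the gene, with the matches in capitals. A match describes letters and does not show binding.

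Hes1: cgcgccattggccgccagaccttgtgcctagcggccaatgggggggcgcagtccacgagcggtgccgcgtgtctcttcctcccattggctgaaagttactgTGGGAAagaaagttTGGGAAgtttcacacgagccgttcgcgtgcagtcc

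Library totals ran from 30289364 to 65348596 assigned reads. Replicate 2 of the 1-week homeostatic assembloids stood apart: 6625 genes had 10 reads or more there, against 11840 to 14162 in the other 26 libraries, and its rank correlation with the others was at most 0.659. Results that rest on it are given with and without it. The 8 hepatocyte markers summed to 65968 to 102410 normalised CPM in fresh hepatocytes and 19015 to 56096 in HepOrgs, where 4 and 5 of them were lower in HM-Wnt at 1 and 2 weeks and 7 in MM at each time. In 2-week MM 1 of them was higher. The 8 endothelial markers summed to 57.9 to 288 normalised CPM in the fresh hepatocytes and 0.931 to 13.5 in the 12 HepOrg libraries. The 8 cholangiocyte markers summed to 41.1 to 172 in the fresh hepatocytes and 3568 to 15480 in the HepOrgs. Not all of them rose. As a description, of the 7 tested, 3 and 5 passed as higher in HM-Wnt at 1 and 2 weeks, and 1 as lower at each time. In MM 5 passed as higher at each time and 0 as lower. Cftr had 3 reads or fewer in every 2-week HM-Wnt library. No cholangiocytes had been added to the HepOrgs. The study's methods state that stray cholangiocyte organoids or mesenchyme sometimes appeared in HepOrg cultures until the passage sampled here, and were picked out. The part of such cells in these sums and in the HepOrg levels of the Notch genes, Jag1, Jag2 and Nrarp among them, was not tested. Normalised CPM are read counts divided by library size, on the CPM scale, with TMM scaling over the 27 libraries. In bulk libraries, fewer cells of a type and less RNA per cell cannot be told apart.

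**Figure D1:**
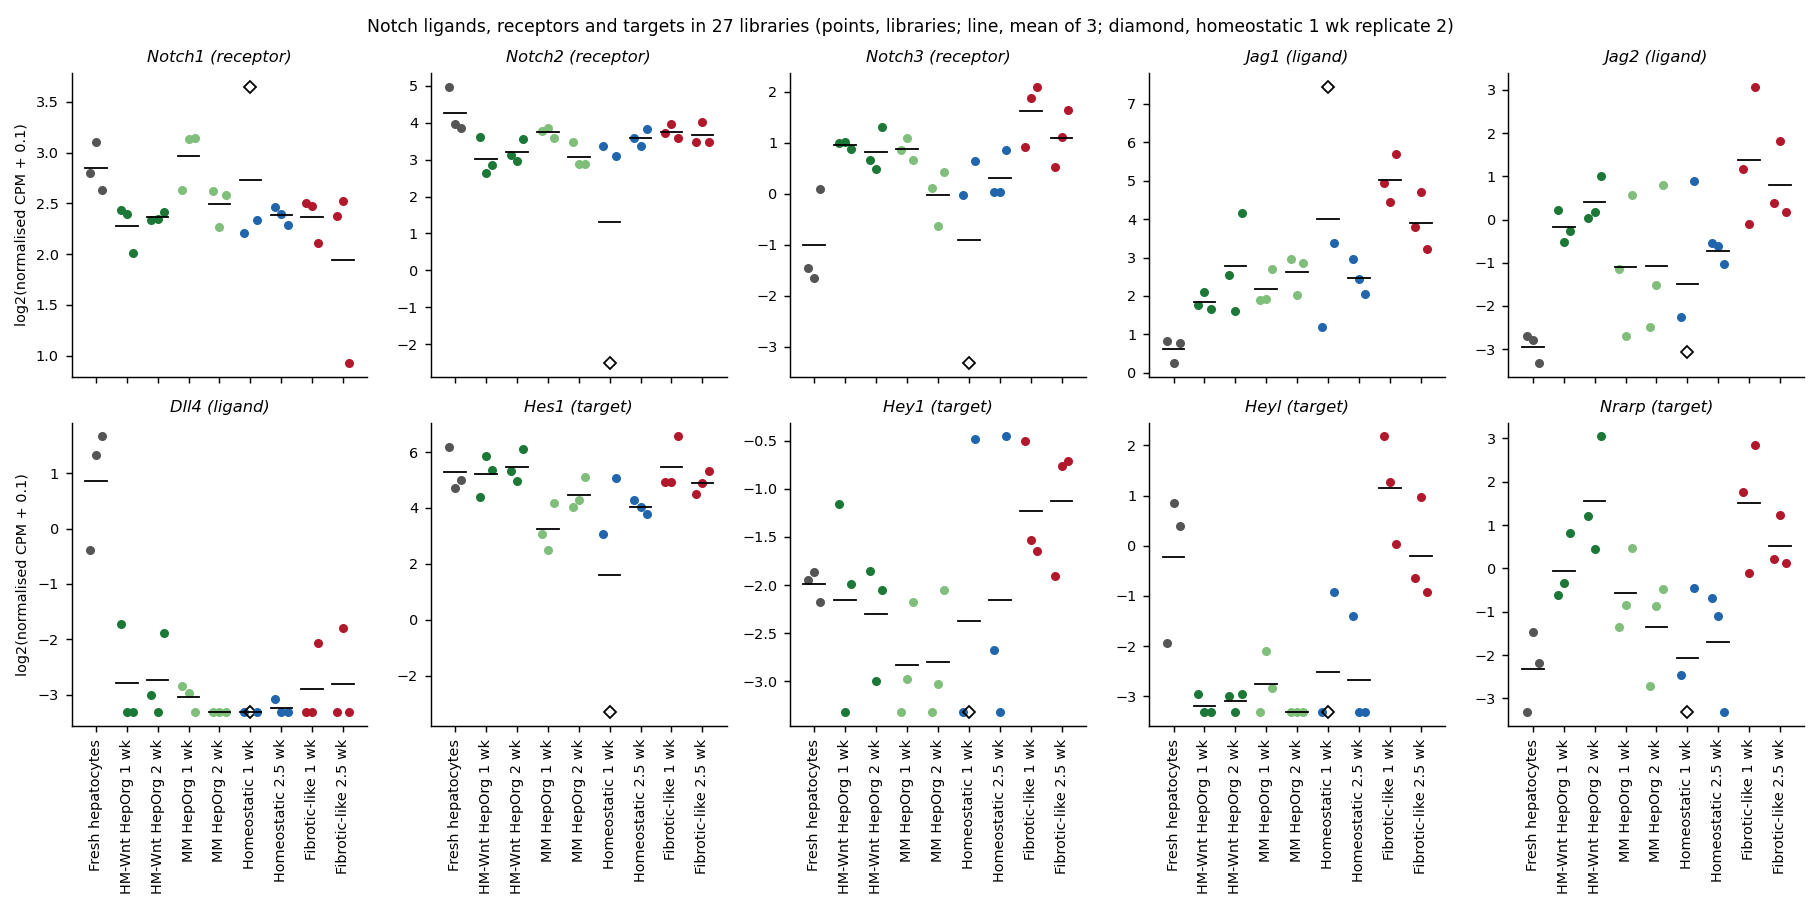
Level of each of the 10 genes in the 27 libraries, as log2(normalised CPM + 0.1), by condition. Points are libraries, lines the mean of 3 on this scale, and the open diamond is replicate 2 of the 1-week homeostatic assembloids, where Jag1 was highest and Hes1 was at 0. Dll4 was at 0.666 normalised CPM or more in fresh hepatocytes and at 0.203 or less elsewhere.

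Per kilobase of exon, Hes1 was the most abundant of the 10 genes in 8 of the 9 conditions, at 3.12 to 15.3 normalised CPM per kilobase. The exception was the 1-week homeostatic assembloids, where the mean of Jag1 was 10.4 and that of Hes1 4.10, with the library that stood apart included. Without it they were 1.05 and 6.15, so that Hes1 came first there too. In fresh hepatocytes the next genes were Notch2 (1.81 CPM per kilobase), Dll4 (0.519) and Notch1 (0.502), ahead of Jag1 (0.245). In 1-week fibrotic-like assembloids the order after Hes1 was Jag1 (5.78), Nrarp (1.46), Notch2 (1.20), Jag2 (0.530) and Heyl (0.483). Hey1 stayed at or below 0.0809 CPM per kilobase in every condition. The order below Hes1 changes if the deposited gene length, mostly the whole gene span, is used, which places Notch2 lower in each condition.

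The first question was how HepOrgs differ from freshly isolated hepatocytes. The labels do not say that these HepOrgs were grown from the same preparations. Jag1 was higher in 2-week HM-Wnt and in both MM conditions, Notch2 was lower in HM-Wnt and 2-week MM, and Hes1 was lower in 1-week MM. Notch3 levels in HM-Wnt and 1-week MM were above those of every fresh library. Jag2 was nearly absent from fresh hepatocytes, and Dll4 and Heyl from HepOrgs. Of the 10 genes, 8 were tested and Hey1 and Heyl had too few counts. Dll4 entered the test through the fresh hepatocytes, and Jag2, Nrarp and Notch3 through the HepOrgs, so the filter favoured a difference. No test of these genes against fresh hepatocytes is used, and the counts that follow, which include them, are a description. With edgeR's quasi-likelihood test and an adjusted p under 0.05, 6 of 8 passed in 1-week HM-Wnt HepOrgs (3 up, 3 down), 7 in 2-week HM-Wnt HepOrgs (4 up, 3 down), 5 in 1-week MM HepOrgs (3 up, 2 down) and 4 in 2-week MM HepOrgs (2 up, 2 down). Of the remaining genes, Notch1 and Notch2 passed in the first, these and Jag1 in the second, Jag1 and Hes1 in the third, and Notch2 and Jag1 in the fourth. Among the 13405 genes tested the share past the threshold was 49.7%, 51.8%, 42.8% and 39.7% in that order. The median log2 fold change of the 8 genes was 0.50, 0.86, 0.85 and 0.25, against 0.02, 0.03, 0.00 and -0.01 over all genes. These 4 comparisons share the same fresh libraries.

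Jag1, the main Notch ligand of the portal tract, was at 1.68, 1.09 and 1.61 normalised CPM in fresh hepatocytes. It was at 3.28, 4.17 and 3.05 in 1-week and 5.75, 2.97 and 17.7 in 2-week HM-Wnt HepOrgs, and at 3.63, 3.69 and 6.40 in 1-week and 7.67, 4.001 and 7.09 in 2-week MM HepOrgs. Every HepOrg library was above every fresh library. The rise passed in 2-week HM-Wnt HepOrgs (log2 fold change 2.50 ± 0.53 SE, adjusted p = 0.00156 by edgeR), 1-week MM HepOrgs (1.58 ± 0.52, adjusted p = 0.0253) and 2-week MM HepOrgs (2.06 ± 0.52, adjusted p = 0.00701). In 1-week HM-Wnt HepOrgs it was 1.17 ± 0.51 (adjusted p = 0.0743 by edgeR). Leaving out 1 library ended the Jag1 call in 1-week MM HepOrgs (fresh replicates 2 and 3, 1.42 and 1.67, and MM replicate 3, 1.30). Jag2, a second Jagged ligand, had 2, 1 and 0 reads in the fresh hepatocytes. It had 14 to 67 reads in the 6 HM-Wnt libraries but as few as 2 and 3 in single MM libraries, and replicate 3 held most MM reads, 68 of 88 at 1 week and 58 of 72 at 2 weeks. From summed reads, Jag2 was 25.4 times higher than in fresh hepatocytes in 1-week HM-Wnt HepOrgs (95% exact interval 8.41 to 126, for counting error only), 39.3 times at 2 weeks (13.2 to 193), and in MM 19.8 times (6.56 to 98.0) and 18.9 times (6.23 to 94.0). Since Jag2 entered the fit through the HepOrgs, its fitted p-values are not used.

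Dll4, a Delta ligand known from endothelium, went the other way. It had 25, 55 and 101 reads in the fresh libraries (0.666, 2.41 and 3.07 normalised CPM) and 0 to 7 in the 12 HepOrg libraries, so the groups did not overlap. Its mean was 2.05 CPM in fresh hepatocytes and 0.0678 (1 week) and 0.0651 (2 weeks) in HM-Wnt. In 1-week MM HepOrgs it had 3 reads, 89.3 times fewer per library size than in fresh hepatocytes (95% exact interval 30.1 to 437). With no read in 2-week MM HepOrgs, Dll4 was at least 76.5-fold lower there, taking 3 reads over the group as the floor. The endothelial markers moved with it: all 8 passed as lower in each of the 4 comparisons, and fresh replicate 1 had the lowest endothelial sum (57.9) and the lowest Dll4. The highest Dll4 was in fresh replicate 3 and the highest endothelial sum in replicate 2. Replicate 1 also had the lowest immune (51.8), portal mesenchyme (23.4), smooth muscle and pericyte (8.71) and cholangiocyte (41.1) sums, but not the lowest hepatocyte sum. Of 8 immune markers 7, 6, 5 and 3 passed as lower in the 4 comparisons, and 1 as higher in each. Kdr and Clec4g, which define endothelium and its sinusoidal form, had 3 reads or fewer in every HM-Wnt library. The part of RNA from endothelial or other non-hepatocyte cells in the Dll4 result was not tested.

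Among receptors, Notch2, the receptor needed for bile duct formation, was at 31.3, 15.4 and 14.5 normalised CPM in fresh hepatocytes and was per kilobase the receptor with the highest level there. HM-Wnt HepOrgs had 12.1, 6.10 and 7.11 at 1 week and 8.57, 7.77 and 11.8 at 2 weeks. MM HepOrgs had 13.7, 14.4 and 11.9 at 1 week and 11.1, 7.28 and 7.29 at 2 weeks. Every HepOrg library was below the lowest fresh library, by a narrow margin for 1-week MM. It fell by 1.31 ± 0.34 and 1.16 ± 0.34 on the log2 scale in HM-Wnt at 1 and 2 weeks (edgeR adjusted p = 0.00603 and 0.0111) and by 1.23 ± 0.34 in 2-week MM (adjusted p = 0.0107), whereas 1-week MM gave -0.63 ± 0.33 (adjusted p = 0.145). Fresh replicate 1 carried much of this: without it the 2-week values were -0.71 in HM-Wnt and -0.75 in MM, neither past the threshold. Notch1, a widely used receptor, differed little, at 6.09 to 8.49 CPM in fresh and 3.93 to 8.73 in HepOrgs. It fell by 0.62 ± 0.21 and 0.53 ± 0.21 in HM-Wnt at 1 and 2 weeks (edgeR adjusted p = 0.0237 and 0.0438), but on log2(TPM + 0.1) the 2-week value turned to 0.26. On that scale the median of all genes stood 0.43 and 0.72 above fresh in HM-Wnt and 0.51 and 0.41 in MM at 1 and 2 weeks, and relative to it Notch1 was at -0.46 and Notch2 at -0.95 in 2-week HM-Wnt HepOrgs, with neither past the threshold.

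Notch3, the receptor of mural and mesenchymal cells, was per kilobase the lowest of the 3 receptors in fresh hepatocytes and the one that rose. It had 10, 5 and 32 reads in fresh hepatocytes (0.266, 0.219 and 0.974 CPM) and 45 to 84 in HM-Wnt libraries (1.31 to 2.38 CPM). In MM it was at 1.71, 2.05 and 1.48 CPM at 1 week and 0.984, 0.543 and 1.24 at 2 weeks, where it overlapped the fresh libraries. Notch3 entered the fit through the HepOrgs, so its fitted p-values against fresh hepatocytes are not used. As a description, its log2 fold change was 1.76 ± 0.50 and 1.67 ± 0.50 in HM-Wnt at 1 and 2 weeks. In MM it was 1.71 ± 0.50 at 1 week and 0.84 ± 0.49 at 2 weeks. The 6 smooth muscle and pericyte markers summed to 1.16 to 7.29 CPM in HepOrgs against 8.71 to 31.1 in fresh hepatocytes. The 10 portal mesenchyme markers summed to 21.8 to 246 CPM in HepOrgs, with 78.4 to 246 in 1-week MM, against 23.4 to 157 in fresh hepatocytes. Their part in the Notch3 result was not tested. Leaving out 1 library ended the Notch1 call in 1-week HM-Wnt (fresh replicate 2, -0.48, and HM-Wnt replicate 3, -0.49). It also ended the Notch1 call in 2-week HM-Wnt (fresh replicates 1 and 2, -0.55 and -0.39, and HM-Wnt replicates 1, 2 and 3, -0.51, -0.53 and -0.54).

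The target genes did not move together. Hes1, a transcriptional repressor and the classical Notch target, was at 72.5, 26.4 and 32.0 normalised CPM in fresh hepatocytes. It was at 20.9, 58.5 and 41.3 in 1-week and 40.2, 31.5 and 68.4 in 2-week HM-Wnt HepOrgs, within the fresh range or just under it. In MM it was at 8.21, 5.47 and 17.9 at 1 week, below every fresh library, and at 16.4, 19.2 and 34.0 at 2 weeks. It fell by 2.08 ± 0.52 on the log2 scale in 1-week MM HepOrgs (edgeR adjusted p = 0.00624), a call kept without any 1 library, and its value was -0.91 ± 0.51 at 2 weeks (adjusted p = 0.17) and -0.17 ± 0.50 and 0.06 ± 0.50 in HM-Wnt (adjusted p = 0.792 and 0.933).

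Nrarp, a target that feeds back on the Notch intracellular domain, had 0, 6 and 4 reads in fresh hepatocytes. In HM-Wnt HepOrgs it had 19, 16 and 77 reads at 1 week and 88, 50 and 288 at 2 weeks, and in MM 15, 17 and 64 and then 2, 20 and 22. Every HM-Wnt and every 1-week MM library was above every fresh library, and 2-week MM libraries overlapped them. The means were 0.128 CPM in fresh hepatocytes, 0.968 and 3.88 in HM-Wnt at 1 and 2 weeks, and 0.682 and 0.375 in MM. Nrarp entered the fit through the HepOrgs, so its fitted p-values against fresh hepatocytes are not used. Heyl, a target known from vessel walls, had 6, 39 and 40 reads in fresh hepatocytes and 0 to 5 in HepOrgs, with the lowest fresh value again in the library with the lowest endothelial sum. It was listed at 0 reads in all 2-week MM libraries, at least 35.9-fold lower by the same floor, and was not tested. Hey1, a related repressor, had 4 to 6 reads in fresh hepatocytes and 0 to 12 in HepOrgs, too few for a comparison at this depth.

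**Figure D2:**
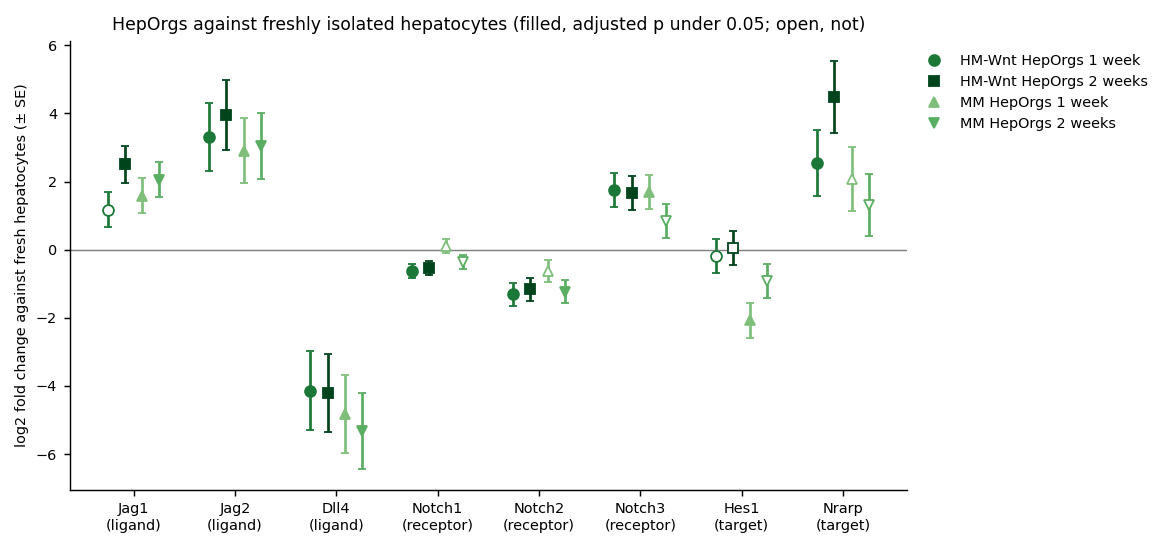
Fitted log2 fold change of the 8 tested genes in the 4 HepOrg conditions against fresh hepatocytes, with bars of 1 SE (edgeR, n = 3 libraries a group). Filled points passed an adjusted p of 0.05, though Jag2, Dll4, Notch3 and Nrarp entered the fit through 1 side of the contrast, so their points are a description. Jag1, Jag2, Notch3 and Nrarp lie above 0 throughout, and Hes1 lies at 0.06 in 2-week HM-Wnt and -2.08 in 1-week MM HepOrgs. Notch1 is at -0.53 in 2-week HM-Wnt and at 0.26 on the TPM scale.

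Other pathway genes, a list of 32 of which 29 were tested, moved in both directions. In 1-week HM-Wnt HepOrgs 6 were higher and 7 lower, in 2-week HM-Wnt 6 and 8, in 1-week MM 7 and 10, and in 2-week MM 6 and 9, beside 49.7%, 51.8%, 42.8% and 39.7% of all genes. The highest in every comparison were Numbl, a relative of the Notch inhibitor Numb, Dlk1, a non-canonical ligand of fetal hepatoblasts, and Dtx3, of the Deltex family. Numbl was at 0 to 0.175 CPM in fresh hepatocytes and 0.829 to 3.80 in HepOrgs. Dlk1 was at 0 to 0.0304 CPM in fresh hepatocytes and 0.181 to 4.86 in HepOrgs. Numbl and Dlk1 entered the fit through the HepOrgs, so their calls and their place in these counts are a description. Among those that fell, Psen2, a catalytic subunit of gamma-secretase, was at 150 to 634 CPM in fresh hepatocytes and 22.7 to 34.3 in HM-Wnt HepOrgs (log2 fold change -3.53 ± 0.51 and -3.87 ± 0.52 at 1 and 2 weeks, edgeR adjusted p = 0.000102 and 4.8e-05). Notch4, a receptor of endothelium, was among the 3 largest falls in 3 of the 4 comparisons, by 2.07 ± 0.63 in 1-week HM-Wnt, 2.40 ± 0.62 in 1-week MM and 1.78 ± 0.63 in 2-week MM (adjusted p = 0.0152, 0.00772 and 0.0374). Others among the largest falls were Hes6 in HM-Wnt (-2.04 and -2.14), Maml3, a co-activator of RBPJ, in 2-week HM-Wnt (-1.38) and 2-week MM (-2.16), Mfng in 1-week MM (-2.72) and Aph1b in 2-week MM (-1.89). The fit of HepOrgs alone tested 27 genes of this list. Some that fell may thus have entered through the fresh hepatocytes, where the filter favours a fall. Which ones did was not checked, Notch4 and Mfng among them.

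The second question was what the change of medium did. Hes1 was lower in MM than in HM-Wnt, Nrarp was lower in MM at 2 weeks, Notch1 was slightly higher in MM, and the ligands did not pass the test. Of the 7 genes tested in HepOrgs (Dll4, Hey1 and Heyl had too few reads), none passed at 1 week in edgeR, with 3 at an unadjusted p under 0.05 and 2 called by DESeq2 (Hes1 and Notch1), against 2.98% of 12989 genes past the threshold. At 2 weeks 1 passed, against 11.5% of genes, and over both times 2 passed, against 21.5% of genes. The median log2 fold change of the 7 genes was -0.06 at 1 week, -0.82 at 2 weeks and -0.44 over both times, against -0.0042, -0.02 and -0.02 for all genes.

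Hes1 was lower in every MM library than in every HM-Wnt library at 1 week (5.47 to 17.9 against 20.9 to 58.5 CPM), and overlapped at 2 weeks (16.4 to 34.0 against 31.5 to 68.4). Over both times it fell by 1.43 ± 0.34 on the log2 scale (edgeR adjusted p = 0.0123), and this call was kept when any 1 library was left out. At 1 week alone the value was -1.91 ± 0.48 (adjusted p = 0.0557), which passed with the replicate number as a block (-2.01, adjusted p = 0.0111). Notch1 over both times was higher by 0.46 ± 0.14 (adjusted p = 0.0381). Its levels were 6.11, 8.71 and 8.73 against 5.31, 5.16 and 3.93 CPM at 1 week and overlapped at 2 weeks, and the call ended without any 1 of 8 libraries (HM-Wnt 1-week replicate 3, all 3 HM-Wnt 2-week replicates, MM 1-week replicates 2 and 3, and MM 2-week replicates 1 and 3), with values of 0.40 to 0.47.

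Nrarp at 2 weeks was at 0.0518, 0.452 and 0.622 CPM in MM and 2.22, 1.26 and 8.17 in HM-Wnt, without overlap. It fell by 3.16 ± 0.89 on the log2 scale (edgeR adjusted p = 0.0423). Without 1 library the value was -3.43 (HM-Wnt replicate 1), -2.03 (HM-Wnt replicate 3), -2.71, -3.33 and -3.60 (MM replicates 1, 2 and 3), none past the threshold. Over both times Nrarp was at -1.82 ± 0.60 (adjusted p = 0.0502), and at -1.77 with the replicate block (adjusted p = 0.00608). Notch3 at 2 weeks was lower in every MM library (0.543 to 1.24 against 1.31 to 2.38 CPM) without passing the test (-0.82 ± 0.35, adjusted p = 0.148). Summed hepatocyte markers were at 27993 to 56096 CPM in HM-Wnt and 19015 to 54679 in MM, and cholangiocyte markers at 5140 to 15480 and 3568 to 12127. Portal mesenchyme markers summed to 21.8 to 82.0 in HM-Wnt and 30.0 to 246 in MM, endothelial markers to 0.931 to 3.61 and 3.24 to 13.5, smooth muscle and pericyte markers to 1.16 to 2.90 and 1.88 to 7.29, and immune markers to 19.0 to 53.2 and 7.54 to 779. Over both times 1 of 8 tested mesenchyme, 1 of 3 endothelial and 2 of 4 immune markers passed as higher in MM. Their part in these differences was not tested.

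No Notch gene passed for a change of the medium effect with time in edgeR (1 at an unadjusted p under 0.05, 0 by DESeq2, 0% of all genes) or for 2 weeks against 1 week over both media (1 at an unadjusted p under 0.05, 0 by DESeq2, 0.0077% of all genes). These single genes were Nrarp for the first (log2 difference -2.67 ± 1.19) and Jag1 for the second (0.91 ± 0.37). Among 27 other pathway genes tested, 1 was higher and 3 were lower in MM over both times, beside 21.5% of all genes past the threshold. Psen2 rose by 1.84 ± 0.26 (edgeR adjusted p = 0.000933), and Aph1b, a gamma-secretase subunit, Adam17, a sheddase, and Ncstn, the gamma-secretase subunit nicastrin, changed by -1.11 ± 0.20, -0.50 ± 0.10 and -0.31 ± 0.09 (adjusted p = 0.00386, 0.00547 and 0.0316). At 1 week none of the 27 passed, beside 2.98% of all genes. At 2 weeks Psen2 was higher and Aph1b and Adam17 were lower, beside 11.5% of all genes.

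The third question was how the share of portal mesenchyme bears on assembloids. The means of Jag1, Jag2, Notch2, Notch3, Hes1, Hey1, Heyl and Nrarp were higher in fibrotic-like than in homeostatic assembloids, and that of Notch1 was lower. The exception was Jag1 at 1 week, where the library that stood apart had 173 CPM. With that library included, no Notch gene passed in the edgeR fits of assembloids, alone or with MM HepOrgs. A fit of all 27 libraries called 2 for fibrotic-like against homeostatic assembloids over both times. Among the 9 Notch genes tested, 1 had an unadjusted p under 0.05 at 1 week, none at 2.5 weeks and 2 over both times. DESeq2 called 0, 0 and 2 of them (Heyl and Nrarp), limma on log2(TPM + 0.1) 2, 0 and 3, and voom with sample quality weights 1, 0 and 2, and the share of all 14255 genes past the threshold in edgeR was 0%. Without the library that stood apart, Jag1 passed over both times, 1 of 10 genes tested, against 29.7% of 14748 genes. At 1 and 2.5 weeks none of the 10 passed then, against 8.01% and 0.258% of genes, with 3 and 1 at an unadjusted p under 0.05. The median log2 fold change over both times was 1.36 for the 9 genes against 0.14 for all genes, and 1.14 for the 10 genes against 0.12 without the library. Hey1 and Heyl entered the fit of every library through the fibrotic-like libraries, and Dll4 the fit without the library that stood apart. The filter thus favoured a rise, and these counts and medians are a description.

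Jag1 in 1-week assembloids was at 2.20, 173 and 10.3 CPM in homeostatic and 30.6, 21.6 and 51.3 in fibrotic-like libraries. At 2.5 weeks it was at 7.68, 5.32 and 4.01 against 13.9, 25.8 and 9.20. Replicate 2 of the 1-week homeostatic group was above every other library, and with it set aside each fibrotic-like library was above each homeostatic library of its time. The log2 fold change at 1 week was -0.90 ± 1.15 with that library and 2.41 ± 0.69 without it (edgeR adjusted p = 0.775 and 0.0575). Over both times it was 0.29 ± 0.80 with it and 1.94 ± 0.45 without it (adjusted p = 0.917 and 0.0159), and 1.61 with every library kept and weighted by quality in limma voom (adjusted p = 0.00607). Jag2 was at 2.17, 0.831 and 8.29 CPM in 1-week and 1.21, 3.44 and 1.04 in 2.5-week fibrotic-like libraries. Homeostatic values were 0.110, 0.0187 and 1.74, and 0.582, 0.554 and 0.389, so the groups overlapped at 1 week only. Jag2 gave 2.13 ± 0.96 over both times, and 1.85 ± 0.77 without the library (adjusted p = 0.267 and 0.0919). Dll4 had 10 reads in 1 fibrotic-like library of each time and 0 or 1 in the other assembloids.

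Among the targets, Heyl and Nrarp did not overlap between the groups of the same time, and neither passed in the edgeR fit of assembloids. Here and in the other comparisons, the share of all genes that separate in this way was not computed, so separation is a description. Heyl had 411, 151 and 67 reads in 1-week fibrotic-like assembloids (4.43, 2.32 and 0.919 CPM) and 26, 99 and 27 at 2.5 weeks. Homeostatic assembloids had 0, 0 and 26, and 15, 0 and 0. Every fibrotic-like library exceeded the homeostatic libraries of its time, and the log2 fold change over both times was 3.32 ± 1.28, or 3.07 ± 1.14 without the library that stood apart. Heyl entered this fit through the fibrotic-like libraries, so its fitted values and its calls by other methods are a description. Nrarp was at 3.32, 0.831 and 7.16 CPM against 0.0826, 0 and 0.631 at 1 week, and at 1.06, 2.25 and 0.988 against 0.525, 0.369 and 0 at 2.5 weeks. Its log2 fold change was 2.91 ± 1.12 over both times and 2.64 ± 0.90 without the library (edgeR adjusted p = 0.192 and 0.0507). Hes1 was at 30.5, 30.4 and 94.3 CPM in fibrotic-like and 8.18, 0 and 33.4 in homeostatic assembloids at 1 week, and at 22.6, 29.4 and 40.3 against 19.4, 16.2 and 13.6 at 2.5 weeks. The 1-week groups overlapped through homeostatic replicate 3, and without replicate 2 the value over both times was 1.07 ± 0.42 (adjusted p = 0.0805). Hey1 stayed at or below 0.628 CPM and its groups overlapped.

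Among receptors, Notch2 was at 13.2, 15.4 and 11.9 CPM in 1-week fibrotic-like assembloids and 10.2, 0.0748 and 8.40 in homeostatic ones, and at 2.5 weeks the groups overlapped (10.95 to 16.3 against 10.2 to 14.2). Notch3 was at 1.79, 3.57 and 4.17 against 0.881, 0 and 1.46 CPM at 1 week, and at 1.33, 2.07 and 3.01 against 0.920, 0.924 and 1.71 at 2.5 weeks. Without the library that stood apart, Notch3 gave 1.08 ± 0.38 over both times and Notch2 0.26 ± 0.17 (edgeR adjusted p = 0.0557 and 0.262). Notch1 gave -0.15 ± 0.28 (adjusted p = 0.714), and its lowest value was 1.80 CPM in 1 fibrotic-like library at 2.5 weeks. On log2(TPM + 0.1) with every library, the median of all genes was 0.92 higher in fibrotic-like assembloids over both times, and Notch1 turned to 0.19, which is -0.73 relative to that median. Relative to it, Nrarp was at 3.24, Hes1 at 2.37, Heyl at 1.92, Jag2 at 1.37, Jag1 at 0.83 and Notch3 at 0.72. Before the median was taken off, Nrarp and Notch3 passed on this scale. Heyl did too, but its call is a description, as above.

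**Figure D3:**
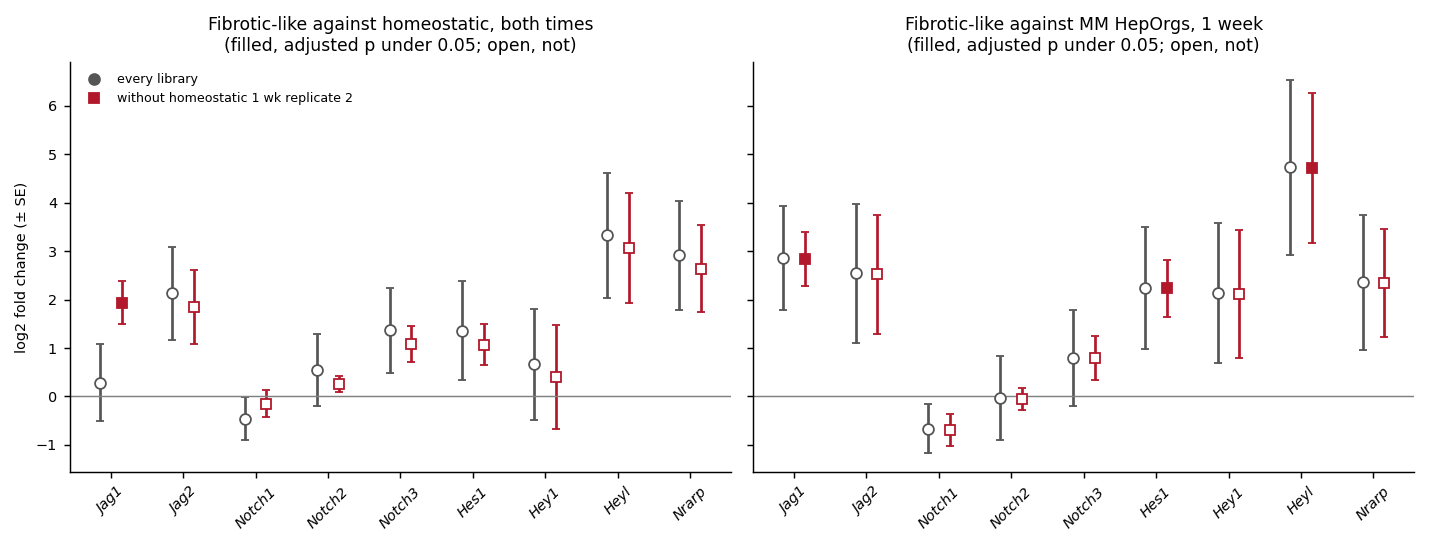
Fitted log2 fold change with bars of 1 SE for fibrotic-like against homeostatic assembloids over both times (left) and fibrotic-like assembloids against MM HepOrgs at 1 week (right). Grey circles use every library and red squares leave out replicate 2 of the 1-week homeostatic assembloids. Filled points passed an adjusted p of 0.05 in edgeR: Jag1 on the left (1.94) and Jag1, Hes1 and Heyl on the right, each without that library. Hey1 and Heyl entered both fits of every library through the fibrotic-like libraries, so their points are a description.

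The cells of the assembloids changed with the same contrast. The 10 portal mesenchyme markers summed to 720 to 6286 CPM in fibrotic-like libraries and 131 to 382 in homeostatic libraries other than the one that stood apart (2123). Without that library 9 of the 10 were higher over both times (median log2 fold change 3.60). Cholangiocyte marker sums overlapped (6693 to 10810 against 6557 to 10219), though 4 of their 8 genes passed as higher. Hepatocyte marker sums ran from 2834 to 52103 in fibrotic-like and 38770 to 78668 in homeostatic libraries without the one that stood apart, where 2 of 8 were lower. Smooth muscle and pericyte markers summed to 12.4 to 102 against 5.12 to 13.5, with 2 of 6 higher, and endothelial markers to 11.9 to 107 against 4.13 to 18.6, with 1 of 4 tested higher and Clec4g at 3 reads or fewer in every assembloid. Among fibrotic-like libraries at 1 week, replicate 3 had the lowest mesenchyme sum (720), the lowest hepatocyte sum and the highest Jag1, Jag2, Hes1 and Nrarp, whereas Heyl was highest in replicate 1. The eGFP row, a reporter that marks the mesenchyme (PDGFRα-H2B-GFP) in the methods of the study, went the other way, at 17.8, 60.2 and 559 CPM in replicates 1, 2 and 3. The part of these cells in the Notch differences was not tested.

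**Figure D4:**
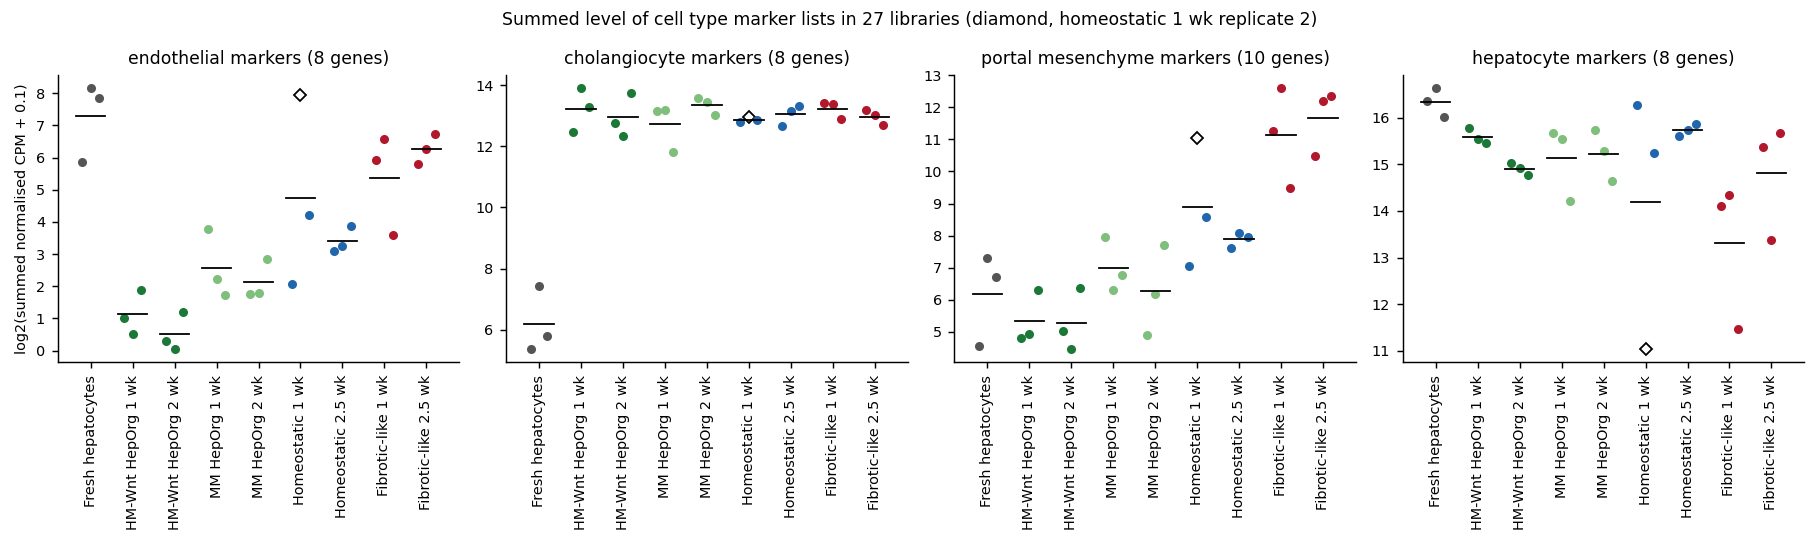
Summed level of 4 marker lists in each library, as log2(summed normalised CPM + 0.1), by condition, with lines for the mean of 3 on this scale and an open diamond for the library that stood apart. Endothelial markers reach 288 CPM in fresh hepatocytes, cholangiocyte markers are at 172 CPM or less in fresh hepatocytes only, and portal mesenchyme markers reach 6286 CPM in fibrotic-like assembloids.

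Against 1-week MM HepOrgs, which share the medium and the day, 1-week fibrotic-like assembloids had more Jag1, Hes1 and Heyl. With every library in the fit, none of the 9 tested genes passed in edgeR (2 at an unadjusted p under 0.05, 2 called by DESeq2, Heyl and Jag1, and 0.751% of 14388 genes past the threshold). Without the library that stood apart, which is in neither group but sets the spread of the fit, 3 of 10 passed against 34.7% of genes. Jag1 rose by 2.84 ± 0.55 and Hes1 by 2.23 ± 0.58 (edgeR adjusted p = 0.00301 and 0.011), and the third was Heyl, with a fitted value of 4.71 ± 1.55. The fold changes were close with it, at 2.86, 2.25 and 4.73. Heyl had 0, 5 and 2 reads in these HepOrgs and entered the fit through the fibrotic-like libraries, so its call is a description. Hey1 entered the fit of every library in the same way, and Dll4 the fit without that library. The counts of genes that passed are therefore a description too. Each fibrotic-like library was above each HepOrg library for Jag1, Hes1 and Heyl. Jag2 and Nrarp gave 2.52 ± 1.23 and 2.34 ± 1.12 without the library (adjusted p = 0.122 and 0.116), and Notch1 -0.69 ± 0.33 (adjusted p = 0.113). Portal mesenchyme markers moved here too, with 9 of 10 higher. Homeostatic assembloids against the same HepOrgs gave no call in edgeR with or without that library (1 and 0 at an unadjusted p under 0.05, 1 by DESeq2, Jag1, and 0% and 0.0269% of all genes). Jag1 moved from 3.84 ± 1.12 with it to 0.43 ± 0.57 without it, and Hes1 gave 0.97 ± 0.61 without it.

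No difference with time was called in assembloids: neither 2.5 weeks against 1 week nor the change of the mesenchyme effect with time gave a call in edgeR (1 and 0 of 9 genes at an unadjusted p under 0.05, 0 and 0 by DESeq2, 0% and 0% of all genes), and none did without the library (0 and 0 at an unadjusted p under 0.05). Among the 29 other pathway genes tested in assembloids, none passed with every library. Without it, 9 were higher and 3 lower in fibrotic-like assembloids over both times, beside 29.7% of all genes. The largest were the RBPJ co-activators Maml2 (2.94 ± 0.88) and Maml3 (1.59 ± 0.36) and Numbl (1.52 ± 0.42), with edgeR adjusted p of 0.0342, 0.0153 and 0.0272. The lowest were Psen2 (-1.42 ± 0.42), the fringe glycosyltransferase Rfng (-0.54 ± 0.16) and the gamma-secretase subunit Psenen (-0.44 ± 0.11), with adjusted p of 0.0317, 0.035 and 0.0195. Rbpj itself was the 1 gene higher at 1 week, beside 8.01% of all genes. It rose by 1.27 ± 0.25 (edgeR adjusted p = 0.043) and was at 14.2 to 16.0 CPM in fibrotic-like assembloids. Against MM HepOrgs 5 were higher and 4 lower, beside 34.7% of all genes, led by Maml2 (5.20 ± 1.16), the fringe Lfng (3.78 ± 1.09) and Maml3 (1.68 ± 0.50) and, downward, Rfng (-0.78 ± 0.21) and Aph1a (-0.77 ± 0.29).

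The order of the condition means showed few clear steps. For Dll4, fresh hepatocytes stood above every other condition without overlap, and for Jag1 and Jag2 they stood at the bottom without overlapping the next condition. For Notch1 the step was between fresh hepatocytes and 2-week MM HepOrgs. For Notch2, Notch3, Hes1, Hey1, Heyl and Nrarp, neighbouring conditions overlapped at every step. The highest mean was in 1-week fibrotic-like assembloids for Notch3, Jag2, Hes1 and Heyl, in 2-week HM-Wnt HepOrgs for Nrarp and in fresh hepatocytes for Notch2 and Dll4.

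The genes with the most similar pattern over the 27 libraries were found by Pearson's r of log2 CPM, given as a description, since the libraries share conditions and 1 of them stands apart. For Jag1 they were Plxna1 (r = 0.947, 0.931 in the 26 other libraries) and Lims1 (0.944, 0.917). For Hes1 they were Top2b (0.969, 0.897) and Elf2 (0.958, 0.799), and for Heyl Wif1 (0.908, 0.906) and Hmcn1 (0.908, 0.905). Jag2 was nearest to Mycbpap (0.923, 0.913) and Ulk4 (0.911, 0.899), Nrarp to Mapk11 (0.880, 0.877) and Mak (0.865, 0.845), and Dll4 to Pou2af2 (0.924, 0.923) and Exoc3l2 (0.914, 0.912). Among receptors, Notch2 was nearest to Baiap2 (0.977) and Chd7 (0.976), which dropped to 0.817 and 0.807 without the library that stood apart. Notch3 was nearest to Garnl3 (0.929, 0.865) and Nisch (0.923, 0.855), and Notch1 to Coq6 (0.830, 0.771) and Rpap1 (0.768, 0.680). Hey1 had the least similar neighbours, Pde3a (0.762, 0.742) and H2bc3 (0.745, 0.747).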

How the data were processed

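SMARTseq2 libraries with paired-end reads were aligned to GRCm39 with STAR, and the authors deposited whole-number counts per gene, assigned with featureCounts, and TPM values made from them. The counts were used as deposited. The TPM values served only an alternative. Deposited lengths lie within 5% of the gene span for 80.8% of matched genes. Of 37 libraries, 27 have a labelled condition and 10 were not used.

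Tests used edgeR 4.0.16 (R 4.3.3): TMM, filterByExpr (minimum count 10, total 15), quasi-likelihood F-test and Benjamini-Hochberg adjustment over all tested genes, with a threshold of 0.05. Fits held the 15 HepOrg and fresh libraries, the 12 HepOrg, the 12 assembloid, or the 6 MM HepOrg and 12 assembloid libraries. The method was tested on simulated data. The members and lists were chosen with earlier results of these data known. Named genes were the 10 members, up to 3 highest and 3 lowest of 32 pathway genes past the threshold, and the 2 genes most similar to each member. Intervals and floors of 3 counts cover counting error only.

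Alternatives were RLE size factors, DESeq2 1.42.0, no filter, limma 3.58.1 on log2(TPM + 0.1), 1 fit of 27 libraries, the replicate block and leaving out each library. Voom with sample quality weights, and leaving the library that stood apart out of 2 further comparisons, were chosen after seeing the data. Replicate numbers paired HepOrg libraries: 18 of 18 same-number pairs had correlated deviations over 0.1 (lowest 0.127), which the labels do not explain. In the other fits not every pair met this. Some pathway and promoter results are not reported here.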

Additional observations from a re-analysis of the deposited data

Results flagged for a closer look

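The deposited table holds rows for the reporters eGFP and tdTomato, which no comparison used. The eGFP row had at most 1 read in the 15 HepOrg and fresh libraries and at least 23 in each of the 12 assembloids (highest 40767, in fibrotic-like replicate 3 at 1 week), and tdTomato had 0 there and at least 9 in each assembloid (highest 6277, in homeostatic replicate 3 at 1 week).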

How the results depend on the processing

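Across 25 changes of single genes that passed and 312 alternatives for them, 241 kept the direction and the call, 70 lost the call and 1 reversed: Notch1 in 2-week HM-Wnt HepOrgs against fresh hepatocytes, at 0.26 on log2(TPM + 0.1). With all 27 libraries in 1 fit, which includes the one that stood apart, the number of Notch genes past the threshold went from 6, 7, 5 and 4 to 2, 3, 0 and 2 against fresh hepatocytes (HM-Wnt at 1 and 2 weeks, MM at 1 and 2 weeks), to 0 for MM against HM-Wnt at 2 weeks and over both times, and to 2 for fibrotic-like against homeostatic assembloids over both times. On log2(TPM + 0.1) it was 2 for 2-week MM HepOrgs against fresh hepatocytes, 1 for MM against HM-Wnt over both times, 2 and 3 for fibrotic-like against homeostatic assembloids at 1 week and over both times, and 1 for fibrotic-like assembloids against HepOrgs. DESeq2 gave 2 for MM against HM-Wnt at 1 week, 2 for fibrotic-like against homeostatic assembloids over both times, 1 for homeostatic and 2 for fibrotic-like assembloids against HepOrgs. Without a filter on low counts, MM against HM-Wnt over both times gave 1. Voom with sample quality weights, chosen after seeing the data, gave 1 and 2 for fibrotic-like against homeostatic assembloids at 1 week and over both times, and 6 for fibrotic-like assembloids against HepOrgs. The cause of these shifts was not tested.

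With 1 library left out, the number of Notch genes past the threshold was 4 to 7, 6 to 7, 3 to 6 and 3 to 5 in the 4 comparisons with fresh hepatocytes, 0 to 1, 0 to 1 and 1 to 2 for MM against HM-Wnt at 1 week, 2 weeks and over both times, 0 to 1 for fibrotic-like against homeostatic assembloids over both times and for homeostatic assembloids against HepOrgs, and 0 to 3 for fibrotic-like assembloids against HepOrgs. With the replicate block, MM against HM-Wnt gave 1 at 1 week and 3 over both times. In the other fits not every same-number pair had a correlation over 0.1 (19 of 30 with fresh hepatocytes, 6 of 18 in assembloids and 11 of 45 in assembloids with HepOrgs), so the block is given here only. There it gave 7, 6, 6 and 4 against fresh hepatocytes and 0 in each assembloid comparison. Over all genes, leaving out the library that stood apart moved the count past the threshold from 0 to 4373 for fibrotic-like against homeostatic assembloids over both times and from 108 to 5145 against HepOrgs.

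With 3 libraries a condition, and 0 to 12 reads of Dll4, Hey1 and Heyl in HepOrgs, small differences were not detectable at this depth. Condition and any batch that follows it cannot be told apart, since the labels give no batch.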
